A study of Mus musculus with 12 samples.

Results

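Desmosome genes and plakins were examined in 4T1, a mouse mammary carcinoma line labelled as triple negative breast cancer. The 10 genes, taken by symbol from the 78317 genes of the deposited table, were the plakins Dsp, Ppl and Evpl, the armadillo proteins Jup, Pkp1, Pkp2 and Pkp3, the desmosomal cadherins Dsg2 and Dsc2, and the tetraspan protein Perp. Each symbol had 1 entry, and all 10 passed the filter on low counts that left 14012 genes for testing. Libraries came from 4 groups of 3 biological replicates: untreated control cells, control cells given 5 ng/ml TGFβ1 for 4 days, untreated PBRM1 knockout (KO) cells, and PBRM1 KO cells given the same TGFβ1. TGFβ1 is a secreted cytokine known to push epithelial cells of many kinds into a mesenchymal state, and PBRM1 is a subunit of the PBAF chromatin remodelling complex. Library names carry sgCt for control and sgPB for PBRM1 KO cells, which the labels do not spell out, and whether either was 1 clone or a pool is not given in the sources used here. Titles of the untreated libraries mark the starting time point, whereas TGFβ1 was given for 4 days. They do not say whether the untreated cells were kept in culture for the same 4 days. Each fall, rise or response with TGFβ1 below compares these libraries, and the part of time in culture was not tested. Comparisons ask how these transcripts differ with TGFβ1 in each genotype, between genotypes, and whether the TGFβ1 difference itself depends on genotype.

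Desmosomes are spot junctions that tie the keratin filaments of neighbouring epithelial cells together. Desmosomal cadherins (desmogleins and desmocollins) bind across the gap between cells, their tails hold the armadillo proteins plakoglobin and plakophilins, and desmoplakin links these to keratin. Periplakin and envoplakin are relatives of desmoplakin that also reach keratin filaments and are best known from the cornified envelope of stratified epithelium. Loss of such junctions is a classical part of the epithelial to mesenchymal transition that TGFβ1 can drive.

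The promoters of Dsp and Jup are shown because the promoter sequences at hand matched only these 2 of the 10 genes. Their proteins, desmoplakin and plakoglobin, are direct binding partners. Jup was called with TGFβ1 in PBRM1 KO cells only, and Dsp in neither genotype. The windows shown are the 250 bases before the RefSeq start sites, 5′ to 3′ on the gene's strand. Their build is GRCm38.p6, which is not the mm39 build of the deposited counts. Dsp lies on the plus strand, with this window at chr13:38151044-38151293, and Jup on the minus strand, at chr11:100397791-100398040. Capitals mark a GC box (GGGCGG, either strand) or a CCAAT box (CCAAT, either strand).
Dsp: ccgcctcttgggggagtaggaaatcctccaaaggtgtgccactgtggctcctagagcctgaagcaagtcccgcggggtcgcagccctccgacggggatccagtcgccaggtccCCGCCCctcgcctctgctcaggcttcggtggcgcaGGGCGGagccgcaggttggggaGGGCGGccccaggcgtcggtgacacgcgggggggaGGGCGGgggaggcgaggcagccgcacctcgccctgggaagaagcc
Jup: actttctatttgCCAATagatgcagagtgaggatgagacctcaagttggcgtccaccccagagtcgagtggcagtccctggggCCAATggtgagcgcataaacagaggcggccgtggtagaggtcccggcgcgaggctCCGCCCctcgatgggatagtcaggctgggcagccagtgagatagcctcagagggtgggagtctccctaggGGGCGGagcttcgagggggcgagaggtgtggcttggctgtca
Neither window overlapped an exon of its own gene in the GENCODE vM21 annotation of that build. Bases shortly after the RefSeq start site were found in a GENCODE transcript of Dsp but in none of Jup. The Jup start site was therefore not matched to that annotation by this check. The Dsp window held 4 GC boxes and 0 CCAAT boxes, and the Jup window held 2 of each. A GC box was found in 32.9% and a CCAAT box in 34.5% of the 27025 promoter windows of this length. On either strand, both windows had 0 matches to CACCTG, the E-box read by SNAI and ZEB factors (17.1% of windows), TGANTCA, the AP-1 site (6.87%), CAGAC, the SMAD box (42.1%), and GGAATG, the TEAD site (12.6%). The marked matches did not overlap one another, and a match or its absence describes only the letters of the window.

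Library totals ran from 9265693 to 11250850 counts. Counts were taken at the 3′ ends of transcripts, so levels are given as CPM (counts scaled to the library total, as deposited) and are compared between libraries, not between genes. Pbrm1 was counted at 258 to 328 CPM in control libraries and 207 to 274 CPM in PBRM1 KO libraries, and a 3′ tag outside an edited site does not check a knockout. The summed level of 5 epithelial markers (Epcam, Cdh1, Krt7, Krt8, Krt18) was 2110 to 2945 CPM in every library, while 7 leukocyte markers summed to 4.98 to 8.19 CPM, with Ptprc at 0 to 0.181 CPM, and 5 endothelial markers to 0.0921 to 1.38 CPM. The 8 fibroblast markers summed to 34.4 to 110 CPM in control cells with TGFβ1 and 28.9 to 65.5 CPM in the other groups, and the 4 myoepithelial markers to 1.99 to 13.5 CPM against 1.02 to 4.46 CPM; their part in the results was not tested. The TGFβ1 replicate 3 libraries of both genotypes stood apart. Across all tested genes, on a scale where 0 is the untreated mean of the same genotype and 1 the TGFβ1 difference of replicates 1 and 2 in the other genotype, their positions were 0.314 (control) and 0.393 (PBRM1 KO), against 0.807 to 0.952 for TGFβ1 replicates 1 and 2. Results that rest on them are given with and without them. They were set apart by their TGFβ1 response in these same data, so fits without them are not separate support for a response. In those fits, calls over all genes went from 1234 to 3414 with TGFβ1 in control cells. In KO cells they went from 1593 to 3984.

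Among the plakins, Ppl and Evpl fell with TGFβ1 while Dsp did not pass the test in either genotype. Dsp encodes desmoplakin, the obligate link of every desmosome to keratin. In control cells its level was 64.6, 46.7 and 47.7 CPM untreated, against 50.6, 61.4 and 32.0 CPM after TGFβ1. In PBRM1 KO cells it was 45.7, 38.0 and 33.7 CPM untreated, against 53.9, 47.4 and 28.6 CPM after TGFβ1. The groups overlapped in both genotypes, and the lowest values of all 12 libraries were those of TGFβ1 replicate 3. The log2 fold change was −0.15 ± 0.24 (SE) in control cells (edgeR quasi-likelihood test, Benjamini-Hochberg adjusted p = 0.747) and 0.13 ± 0.24 in KO cells (edgeR adjusted p = 0.781). When both TGFβ1 replicate 3 libraries were left out it was 0.07 ± 0.15 (edgeR adjusted p = 0.767) and 0.35 ± 0.15 (edgeR adjusted p = 0.0962).

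Ppl encodes periplakin. It was counted at 29.5, 20.2 and 22.9 CPM in untreated control libraries and at 5.07, 5.16 and 11.8 CPM with TGFβ1. Untreated PBRM1 KO libraries held 19.7, 18.6 and 20.6 CPM, and those with TGFβ1 5.10, 4.38 and 8.94 CPM. All 6 TGFβ1 libraries lay below all 6 untreated libraries, and replicate 3 was the highest TGFβ1 library of each genotype. Ppl fell 3.27-fold in control cells (log2 fold change −1.71 ± 0.30, edgeR adjusted p = 0.00441) and 3.20-fold in KO cells (−1.68 ± 0.31, edgeR adjusted p = 0.00441). Without the TGFβ1 replicate 3 libraries the log2 fold changes were −2.25 ± 0.17 and −2.07 ± 0.18, with edgeR adjusted p = 2.39e-07 and 5.24e-07. Ppl passed in all 22 alternative settings in each genotype. In bulk RNA, fewer cells with a transcript and less of it per cell cannot be told apart.

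Evpl encodes envoplakin, the usual dimer partner of periplakin. Its counts were low, summing over 3 libraries to 50.5 and 14.8 in untreated and TGFβ1 control cells and to 61.2 and 29 in the KO cells, with fractional counts in 6 libraries. Control libraries were at 1.54, 1.497 and 1.84 CPM untreated, against 0.459, 0.384 and 0.591 CPM after TGFβ1. PBRM1 KO libraries were at 1.96, 2.12 and 1.48 CPM untreated, against 1.13, 0.996 and 0.626 CPM after TGFβ1. The TGFβ1 libraries were below the untreated ones in both genotypes, and replicate 3 was the highest of the TGFβ1 libraries in control cells but the lowest in KO cells. Evpl fell 3.47-fold in control cells (log2 fold change −1.79 ± 0.33, edgeR adjusted p = 0.0053), a call held in all 21 alternatives that tested it. In KO cells it fell 2.02-fold (−1.02 ± 0.28, edgeR adjusted p = 0.0326), and 12 of 21 alternatives kept this call. It was lost without both TGFβ1 replicate 3 libraries (−0.81 ± 0.31, edgeR adjusted p = 0.062), and also without any 1 of untreated KO replicates 1 and 2 and TGFβ1 KO replicates 1, 2 and 3, where log2 fold changes over all libraries left out in turn were −1.19 to −0.83.

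**Figure D1:**
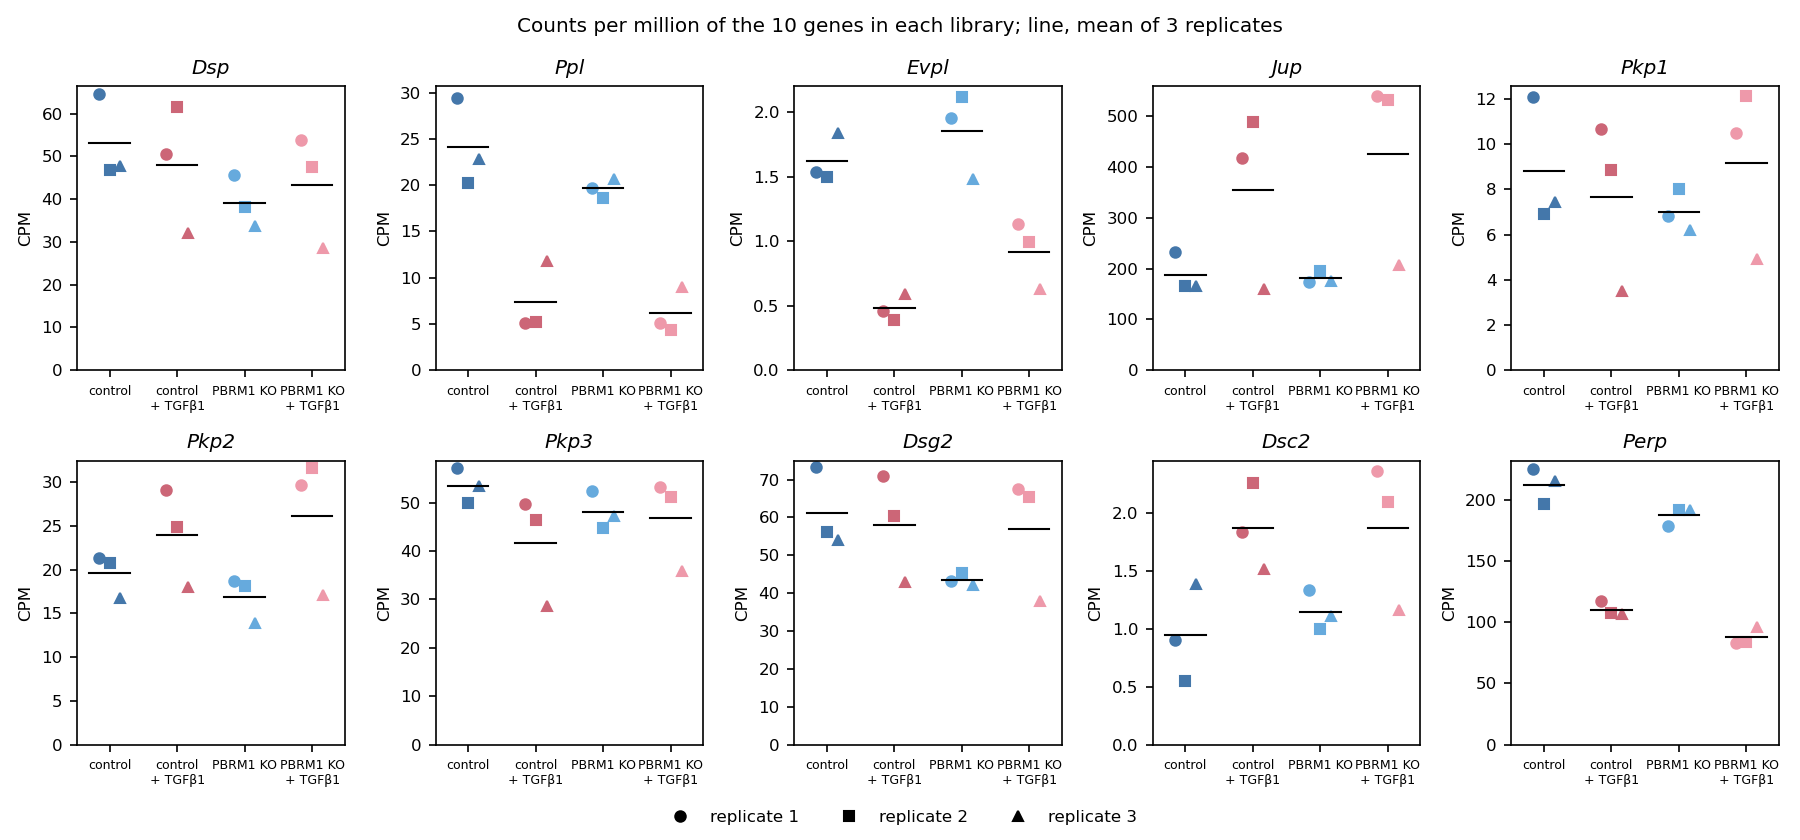
Level of each of the 10 genes in CPM (vertical axes, from 0) in the 12 libraries, by group (horizontal axes); symbols are replicates 1, 2 and 3 and the line is the mean of 3. Ppl and Perp with TGFβ1 lie below every untreated library, Jup reaches 417 to 541 CPM in TGFβ1 replicates 1 and 2 only, and the triangle of replicate 3 is the lowest TGFβ1 point in most panels.

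Of the armadillo proteins, Jup gave the largest rise and was called in PBRM1 KO cells, while none of the 4 was called in control cells. Jup encodes plakoglobin (γ-catenin), which sits both in desmosomes and, beside β-catenin, in adherens junctions. In control cells it was counted at 233, 165 and 166 CPM untreated and at 417, 488 and 159 CPM with TGFβ1. In PBRM1 KO cells it was counted at 173, 196 and 176 CPM untreated and at 541, 532 and 207 CPM with TGFβ1. TGFβ1 replicates 1 and 2 were far above every untreated library in both genotypes, whereas replicate 3 lay below all untreated libraries in control cells and just above them in KO cells. The mean went from 188 ± 38.7 (SD, n = 3) to 355 ± 173 CPM in control cells and from 182 ± 12.6 to 426 ± 190 CPM in KO cells.

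The log2 fold change of Jup was 0.91 ± 0.36 in control cells (edgeR adjusted p = 0.138) and 1.22 ± 0.37, or 2.32-fold, in KO cells (edgeR adjusted p = 0.0481). The KO call stood close to the threshold and held in 10 of 22 alternatives. Leaving out 1 library at a time ended it in 9 of 12 fits, with edgeR adjusted p up to 0.192: each untreated library of either genotype, control TGFβ1 replicate 1, and KO TGFβ1 replicates 1 and 2, with log2 fold changes of 1.00 to 1.26 in those fits. Without both TGFβ1 replicate 3 libraries Jup passed in both genotypes. Its log2 fold change was 1.26 ± 0.12 in control cells (edgeR adjusted p = 2.82e-06) and 1.54 ± 0.12 in KO cells (edgeR adjusted p = 2.68e-07). The libraries left out were set apart by their weaker TGFβ1 response, so this fit is not separate support for a rise. Leaving out control TGFβ1 replicate 3 alone was enough for the control call (edgeR adjusted p = 0.00812).

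The plakophilins Pkp1, Pkp2 and Pkp3 are armadillo proteins that cluster cadherins and desmoplakin at the plaque; Pkp2 is the form typical of simple epithelium and heart, and Pkp1 of stratified epithelium. Pkp2 was at 21.3, 20.7 and 16.7 CPM in untreated control cells and at 29.1, 24.9 and 18.0 CPM with TGFβ1. For PBRM1 KO cells the values of Pkp2 were 18.7, 18.1 and 13.96 CPM untreated, against 29.6, 31.6 and 17.2 CPM with TGFβ1. TGFβ1 replicates 1 and 2 exceeded every untreated library of the genotype, as for Jup, and replicate 3 lay within the untreated range in both genotypes. The log2 fold change of Pkp2 was 0.29 ± 0.22 (edgeR adjusted p = 0.455) in control and 0.61 ± 0.22 (edgeR adjusted p = 0.0897) in KO cells. Without both TGFβ1 replicate 3 libraries Pkp2 rose by 0.45 ± 0.14 (edgeR adjusted p = 0.0317) and 0.83 ± 0.14 (edgeR adjusted p = 0.000434). In KO cells it also passed without control TGFβ1 replicate 3 alone or KO TGFβ1 replicate 3 alone (edgeR adjusted p = 0.0489 and 0.00652), and with the replicate number as a block, 0.59 with edgeR adjusted p = 0.00344.

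Pkp1 was at 12.1, 6.91 and 7.45 CPM in untreated and 10.7, 8.86 and 3.50 CPM in TGFβ1 control libraries. In PBRM1 KO libraries it was at 6.84, 8.01 and 6.19 CPM untreated, against 10.5, 12.2 and 4.92 CPM after TGFβ1. Both TGFβ1 replicate 3 libraries were the lowest of the 12, and the groups overlapped in both genotypes. Neither contrast passed (log2 fold changes −0.21 ± 0.37 and 0.37 ± 0.36, edgeR adjusted p = 0.762 and 0.563). With both TGFβ1 replicate 3 libraries left out they were 0.13 ± 0.21 (edgeR adjusted p = 0.71) and 0.66 ± 0.21, which passed in KO cells (edgeR adjusted p = 0.0271).

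Pkp3, found in nearly all desmosome-bearing epithelia, was at 57.2, 49.9 and 53.4 CPM in untreated control cells and at 49.6, 46.5 and 28.6 CPM with TGFβ1. In PBRM1 KO cells it was at 52.4, 44.7 and 47.3 CPM untreated and at 53.3, 51.1 and 35.9 CPM with TGFβ1. The control TGFβ1 libraries lay below the untreated ones with replicate 3 far down, and the KO groups overlapped. The log2 fold changes were −0.37 ± 0.18 (edgeR adjusted p = 0.219) and −0.06 ± 0.18 (edgeR adjusted p = 0.875), and leaving out both TGFβ1 replicate 3 libraries gave −0.17 ± 0.10 and 0.09 ± 0.10 (edgeR adjusted p = 0.235 and 0.516).

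The 2 desmosomal cadherins counted in these cells, Dsg2 and Dsc2, are the pair typical of simple epithelium. Dsg2, desmoglein 2, was at 73.2, 56.1 and 54.0 CPM in untreated control cells and at 70.9, 60.4 and 42.9 CPM with TGFβ1. In PBRM1 KO cells it was at 43.2, 45.3 and 42.1 CPM untreated and at 67.5, 65.3 and 38.0 CPM with TGFβ1. TGFβ1 replicates 1 and 2 were above all untreated KO libraries and within the range of the untreated control libraries. The log2 fold changes were −0.08 ± 0.20 (edgeR adjusted p = 0.849) and 0.37 ± 0.20 (edgeR adjusted p = 0.264). With both TGFβ1 replicate 3 libraries left out they were 0.09 ± 0.12 (edgeR adjusted p = 0.611) and 0.59 ± 0.12, which passed in KO cells (edgeR adjusted p = 0.00153), as it did without KO TGFβ1 replicate 3 alone (edgeR adjusted p = 0.0263).

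Dsc2, desmocollin 2, was near the detection limit, with 184 counts over all 12 libraries. Its control values were 0.904, 0.553 and 1.38 CPM untreated, against 1.83, 2.26 and 1.51 CPM after TGFβ1. Its PBRM1 KO values were 1.33, 1.00 and 1.11 CPM untreated, against 2.36, 2.09 and 1.16 CPM after TGFβ1. The control groups did not overlap, and the KO groups did through replicate 3. The log2 fold changes of 1.00 ± 0.35 and 0.68 ± 0.33 did not pass (edgeR adjusted p = 0.0986 and 0.215). After leaving out both TGFβ1 replicate 3 libraries, Dsc2 rose by 1.13 ± 0.34 (edgeR adjusted p = 0.0267) and 0.92 ± 0.32 (edgeR adjusted p = 0.0445).

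Perp, a tetraspan membrane protein of desmosomes and a target gene of p53 and p63, had the smallest standard errors of the 10. In control cells it was counted at 225, 197 and 215 CPM untreated, against 117, 107 and 107 CPM after TGFβ1. In PBRM1 KO cells it was counted at 179, 191 and 191 CPM untreated, against 83.3, 83.8 and 96.4 CPM after TGFβ1. No untreated library came near a TGFβ1 library, and replicate 3 sat with the other TGFβ1 replicates, at 0.949 and 1.15 times their mean. Perp fell 1.93-fold in control cells (log2 fold change −0.95 ± 0.09, edgeR adjusted p = 6.53e-05) and 2.15-fold in KO cells (−1.10 ± 0.09, edgeR adjusted p = 2.16e-05). It passed in all 22 alternatives in each genotype, and without both TGFβ1 replicate 3 libraries the values were −0.93 ± 0.09 and −1.19 ± 0.09 (edgeR adjusted p = 2.27e-06 and 1.7e-07).

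**Figure D2:**
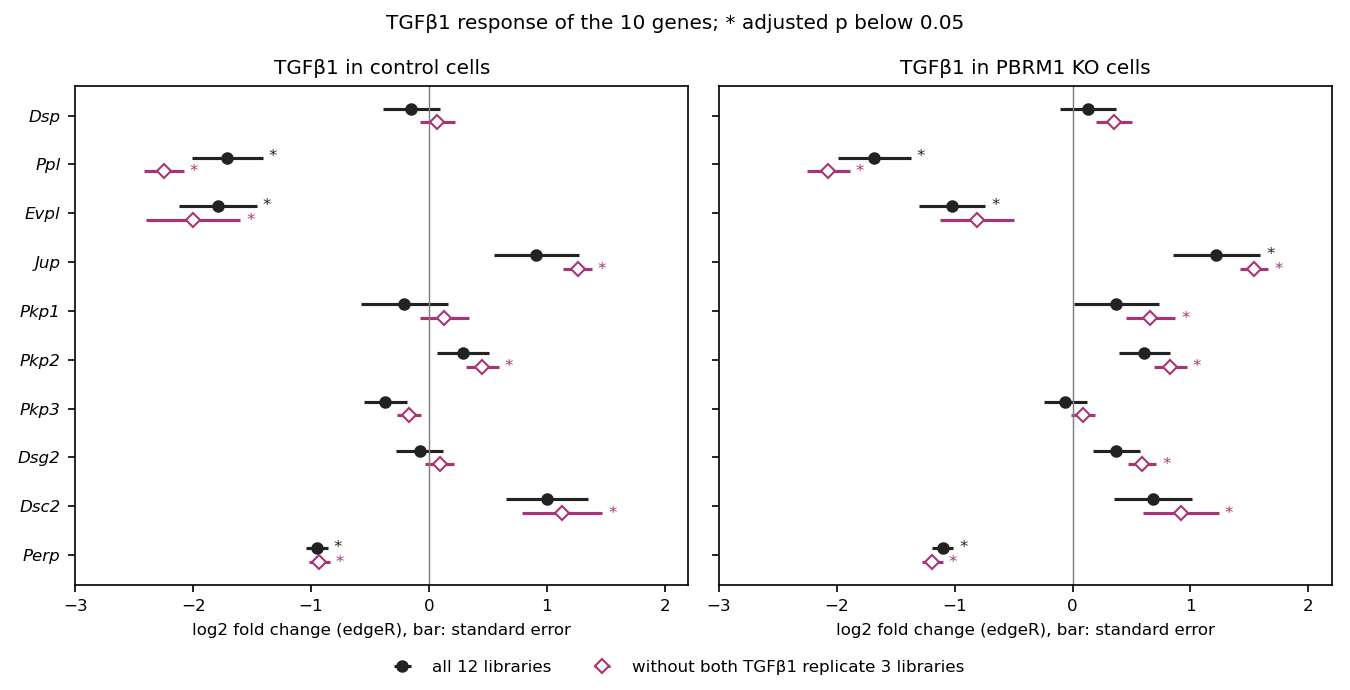
Log2 fold change with TGFβ1 (horizontal axis, edgeR, bars 1 standard error) of the 10 genes in control and PBRM1 KO cells, from all 12 libraries (filled circles) and without both TGFβ1 replicate 3 libraries (open diamonds); an asterisk marks an adjusted p below 0.05. Ppl, Evpl and Perp lie left of 0 in both panels under both fits, while Jup goes from 0.91 to 1.26 in control cells and from 1.22 to 1.54 in KO cells.

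In all, with TGFβ1 in control cells 0 of the 10 genes rose and 3 fell (Ppl, Evpl, Perp), where 8.81% of all tested genes were called, 5.89% higher and 2.91% lower. In PBRM1 KO cells 1 rose (Jup) and the same 3 fell, where 11.4% of tested genes were called, 7.65% higher and 3.72% lower. The median log2 fold change of the 10 was −0.18 in control and 0.25 in KO cells, against 0.00 over all genes tested in each. Without both TGFβ1 replicate 3 libraries 3 rose (Jup, Dsc2, Pkp2) and 3 fell in control cells, at a background of 23.9% (13.9% higher, 10% lower), and 5 rose (Jup, Pkp1, Pkp2, Dsg2, Dsc2) and 2 fell (Ppl, Perp) in KO cells, at a background of 27.9% (16% higher, 12% lower). With the replicate number as a block in KO cells, 2 rose (Jup, Pkp2) and 3 fell, at a background of 19.8% (12% higher, 7.84% lower). By kind, both cornified-envelope plakins and Perp were on the lower side. No armadillo protein or cadherin among the 10 genes was called lower in either genotype under these fits. With no filter on low counts, Pkp3 was called lower in control cells (−0.37, edgeR adjusted p = 0.0466).

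The position of TGFβ1 replicate 3 was itself gene-dependent. It was the lowest of its own group for 8 of 10 genes in control cells and 8 of 10 in KO cells, for 7 of them in both. Shares over all tested genes are not given here for this order or those that follow. The counts are therefore not read as particular to the 10 genes. Jup in replicate 3 was at 0.351 and 0.387 times the mean of replicates 1 and 2, Pkp1 at 0.358 and 0.434 times, and Dsp at 0.571 and 0.565 times. Ppl went the other way, at 2.31 and 1.89 times. For Dsp, Pkp1 and Pkp3 the 2 TGFβ1 replicate 3 libraries were the 2 lowest of all 12, below every untreated library. The levels of these 3 genes in replicate 3 were therefore not between those of the untreated libraries and those of TGFβ1 replicates 1 and 2. The same held for Dsg2 in both genotypes, for Jup and Perp in control cells and for Evpl in KO cells. There replicate 3 was the lowest of its group and below every untreated library of its genotype.

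**Figure D3:**
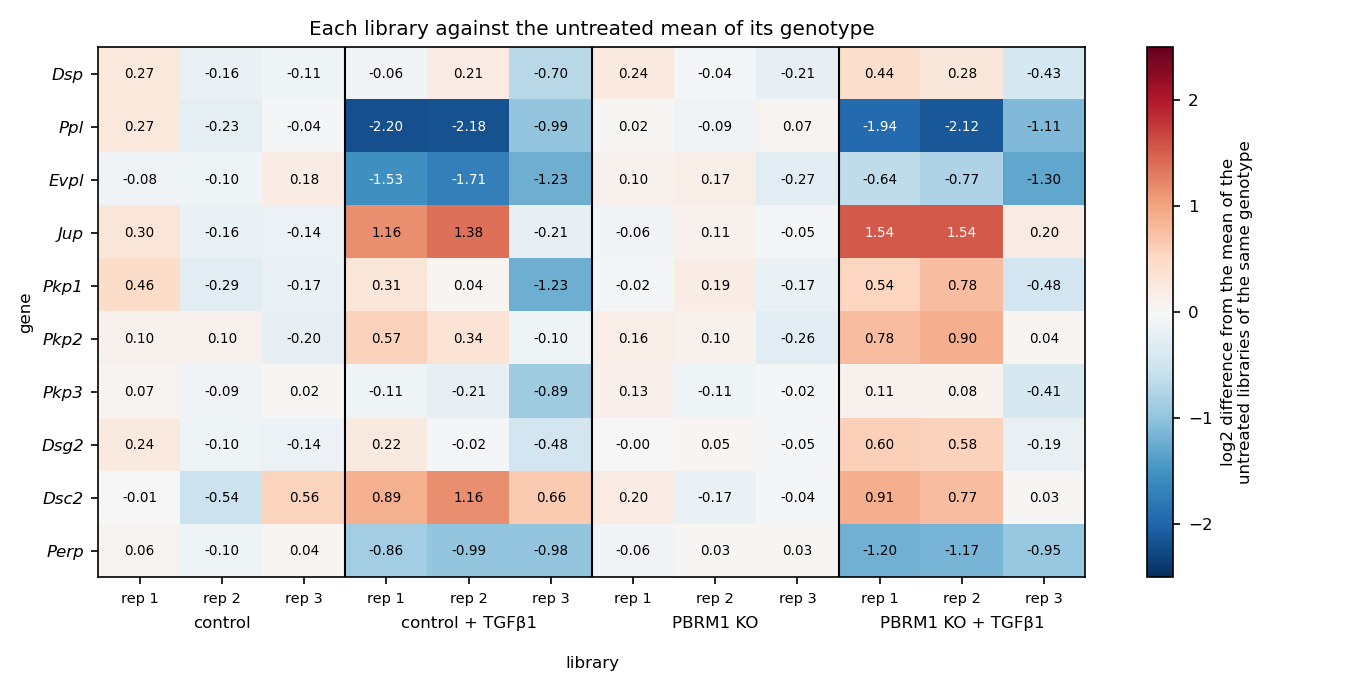
Log2 difference of each library (columns, by group and replicate) from the mean of the untreated libraries of its genotype for the 10 genes (rows), blue lower and red higher, with the value printed. Perp is −0.86 to −1.20 in all 6 TGFβ1 libraries. Dsp, Pkp1 and Pkp3 are −0.41 to −1.23 in the TGFβ1 replicate 3 columns and −0.21 to 0.78 in TGFβ1 replicates 1 and 2. Perp, Ppl, Evpl and Dsg2 are also below 0 in both TGFβ1 replicate 3 columns.

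The makeup of the summed counts shifted with these changes. The 10 genes together held 564 to 718 CPM in untreated control and 533 to 563 CPM in untreated KO libraries. With TGFβ1 they held 753, 806 and 404 CPM in control and 847, 830 and 439 CPM in KO libraries, so replicates 1 and 2 were above and replicate 3 below every untreated library. Jup gave 28.3 to 32.4% of the summed counts in untreated control libraries and 55.4, 60.6 and 39.3% with TGFβ1. In KO cells it gave 31.9 to 34.8% untreated and 63.8, 64.0 and 47.2% with TGFβ1. On this measure replicate 3 lay between the untreated libraries and replicates 1 and 2 in both genotypes. Counts of Jup per count of Dsp were 3.48 to 3.6 untreated and 8.25, 7.95 and 4.97 with TGFβ1 in control cells, and 3.79 to 5.22 and 10.0, 11.2 and 7.25 in KO cells. Counts of Ppl per count of Dsp were 0.432 to 0.480 and then 0.1, 0.0839 and 0.370 in control cells, and 0.432 to 0.614 and then 0.0946, 0.0924 and 0.312 in KO cells. These ratios describe counts at 3′ ends, not numbers of molecules of one protein per other, and no test was run on them.

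**Figure D4:**
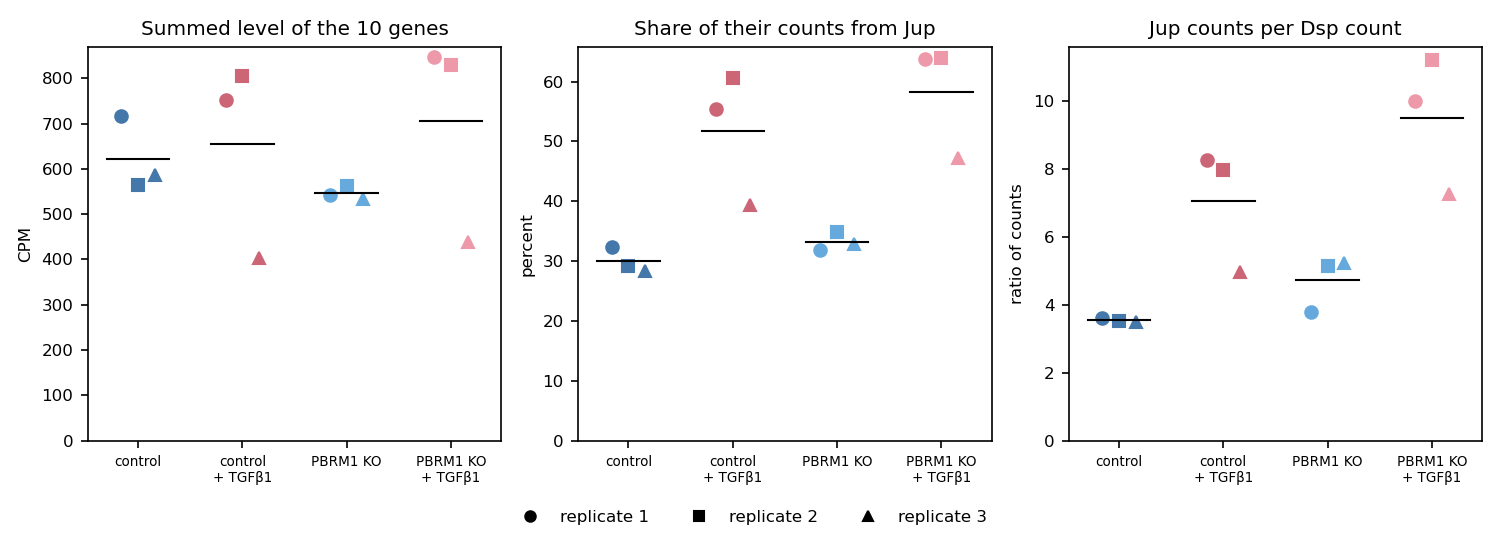
Summed level of the 10 genes in CPM (left), the percent of their counts that come from Jup (middle) and counts of Jup per count of Dsp (right) in each library, by group, all axes from 0; symbols are replicates and lines group means of 3. The sum of TGFβ1 replicate 3 (404 and 439 CPM) is below every untreated library, while its Jup share (39.3 and 47.2%) is above every untreated library.

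Between genotypes none of the 10 genes was called, with or without TGFβ1, where 0.278% and 0.271% of all tested genes were. Without TGFβ1 the smallest p was that of Dsg2, at 42.1 to 45.3 CPM in PBRM1 KO and 54.0 to 73.2 CPM in control cells. The groups did not overlap (log2 fold change −0.49 ± 0.20, unadjusted p = 0.0308, edgeR adjusted p = 0.576), and the contrast passed without both TGFβ1 replicate 3 libraries (−0.49, edgeR adjusted p = 0.0335, background 1.41%), which are in neither group but share the estimate of the spread. Dsp (−0.44 ± 0.24, edgeR adjusted p = 0.782) and Perp (−0.18 ± 0.09, edgeR adjusted p = 0.668) were also lower in all 3 untreated KO libraries than in all 3 untreated control libraries. The share of all tested genes that separate in this way is not given here. Separation is therefore not read as a genotype difference. Log2 fold changes of the other 7 genes were −0.33 to 0.30.

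With TGFβ1, Perp was at 83.3 to 96.4 CPM in PBRM1 KO and 107 to 117 CPM in control cells, again without overlap (−0.34 ± 0.09, unadjusted p = 0.0019, edgeR adjusted p = 0.183). The value was −0.34 with edgeR adjusted p = 0.0713 under the replicate block (background 1.13%), and leaving out both TGFβ1 replicate 3 libraries gave −0.44 with edgeR adjusted p = 0.0616 (background 0.533%). Evpl was at 0.626 to 1.13 CPM in KO and 0.384 to 0.591 CPM in control cells (0.98 ± 0.36, unadjusted p = 0.0285, edgeR adjusted p = 0.498). The KO libraries were thus above the control libraries for Evpl, on sums of 29 and 14.8 counts. Separation is again given without its share over all tested genes and is not read as a genotype difference. Log2 fold changes of the other 8 genes were −0.27 to 0.25.

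The difference between the TGFβ1 responses of the genotypes, tested as an interaction, was called for none of the 10 genes and for none of the 14012, with 247 genes at an unadjusted p under 0.05 and 0 called by DESeq2. The TGFβ1 contrasts use separate libraries, and their values therefore stand side by side with this test of the difference. Jup differed by 0.30 on the log2 scale (95% interval −0.80 to 1.40), so a difference in either direction is within the error. Ppl differed by 0.03 (−0.91 to 0.97), Evpl by 0.78 (−0.17 to 1.73) and Perp by −0.16 (−0.42 to 0.11). The narrow interval of Perp leaves out a difference beyond 0.42 in size, while those of the other 3 do not. The call of Jup in KO cells alone is thus not shown to differ from the control response. Estimates were positive for 8 of the 10 genes, the exceptions being Dsc2 (−0.32, −1.38 to 0.73) and Perp.

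Over the 4 groups, mean levels of Perp ran from 212 ± 14.2 CPM (SD, n = 3) in untreated control through 187 ± 7.27 in untreated KO and 110 ± 5.90 in TGFβ1 control to 87.8 ± 7.44 CPM in TGFβ1 KO cells. Genotypes under the same treatment, which are neighbours in this order, did not pass the test, and the step from untreated KO to TGFβ1 control cells was not tested. Ppl had the same order, at 24.2 ± 4.78, 19.6 ± 1.05, 7.35 ± 3.88 and 6.14 ± 2.45 CPM. Evpl was highest in untreated KO (1.85 ± 0.331 CPM) and untreated control cells (1.62 ± 0.185), followed by TGFβ1 KO (0.918 ± 0.262) and TGFβ1 control cells (0.478 ± 0.105). For Jup the 2 TGFβ1 groups came first, with SDs of 173 and 190 CPM that exceed the gap between them.

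Among the rest of the desmosome and plakin family no tested gene was called over all 12 libraries without the replicate block. Of 13 further desmosomal cadherins, armadillo proteins, plakins and partners, 6 cadherins of stratified epithelium (Dsg1a, Dsg1b, Dsg1c, Dsg4, Dsc1, Dsc3) had 0 counts in every library. Dsg3 had between 0 and 0.106 CPM, and 5 of the 13 were tested. None of those 5 passed in any of the 5 contrasts in that fit. Under the replicate block 2 of the 5 were called lower with TGFβ1 in control cells, at a background of 17.1%. Eppk1, epiplakin, was −0.44 (edgeR adjusted p = 0.075) and −0.34 (edgeR adjusted p = 0.152) with TGFβ1 in control and KO cells. Pkp4, an armadillo protein of cell junctions and the cytoplasm, was −0.37 (edgeR adjusted p = 0.0892) and −0.27 (edgeR adjusted p = 0.186), and it passed in control cells without both TGFβ1 replicate 3 libraries (−0.43, edgeR adjusted p = 0.0273). Plec, plectin, a plakin that links keratin to hemidesmosomes, was at 118 to 163 CPM in all 12 libraries, with −0.08 and −0.05.

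Keratins form the filaments to which desmosomes are anchored. Of 16 listed, 9 were tested. In control cells 0 rose and 3 fell (Krt19 −1.05, Krt8 −0.49, Krt18 −0.39), at a background of 8.81%. In KO cells 0 rose and 2 fell (Krt19 −0.80, Krt8 −0.30), at a background of 11.4%. These calls had edgeR adjusted p = 0.00136 to 0.0177. Krt8 and Krt18 are the paired keratins of simple epithelium, and Krt19 is another keratin of simple and ductal epithelium. Over all 12 libraries estimates were positive for 5 and negative for 4 of the 9 in each genotype. Krt14, which did not pass, was at 17 to 27.7 CPM untreated and 90.7, 64.4 and 10.5 CPM with TGFβ1 in control cells. In KO cells it was at 3.98 to 9.69 and then 51.1, 45.7 and 9.38 CPM. Without both TGFβ1 replicate 3 libraries 3 rose and 3 fell in control (background 23.9%) and 5 rose and 3 fell in KO cells (27.9%). Under the replicate block 3 rose and 3 fell in KO cells (background 19.8%).

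In the adherens junction list, 8 of 10 genes were tested. With TGFβ1, 8.81% (control) and 11.4% (KO) of all tested genes were called. Cdh1, E-cadherin, fell by 0.75 and 0.59 on the log2 scale in control and KO cells (edgeR adjusted p = 0.00222 and 0.00738), and Ctnnb1, β-catenin, the close relative of plakoglobin, rose by 0.40 in KO cells (edgeR adjusted p = 0.0151). Ctnnb1 was at 292 to 294 CPM untreated and 369, 376 and 319 CPM with TGFβ1 in control cells, and at 229 to 269 and then 355, 356 and 291 CPM in KO cells. Every TGFβ1 library was above every untreated library of its genotype, with replicate 3 the lowest of them. Leaving out both TGFβ1 replicate 3 libraries, 2 rose (Ctnnb1, Nectin1) and 1 fell in each genotype, at backgrounds of 23.9% (control) and 27.9% (KO). Under the replicate block 1 rose and 2 fell (Cdh1, Afdn) in KO cells, at a background of 19.8%. Between genotypes 0 of the 8 passed over all 12 libraries, where 0.278% (untreated) and 0.271% (with TGFβ1) of all tested genes were called. Nectin2, a nectin of cell contacts, was nearest, at −0.58 (edgeR adjusted p = 0.0553) untreated and −0.54 (edgeR adjusted p = 0.0711) with TGFβ1. With TGFβ1 it passed under the replicate block (−0.54, edgeR adjusted p = 0.0296), and leaving out both TGFβ1 replicate 3 libraries gave a call for Nectin1 instead (−0.68, edgeR adjusted p = 0.0269). Untreated, Nectin2 passed when those libraries were left out (−0.58, edgeR adjusted p = 0.0117).

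Among 11 regulators of desmosome assembly, shedding and turnover, 2 rose and 2 fell in each genotype. Of all tested genes 8.81% were called in control and 11.4% in KO cells. Egfr, the receptor whose signalling loosens desmosomes, rose by 1.75 and 1.71 on the log2 scale, from 0.832 to 1.72 CPM untreated to 5.40, 5.16 and 1.80 CPM in control and 5.47, 4.08 and 1.43 CPM in KO cells (edgeR adjusted p = 0.0449 and 0.0453), so replicate 3 again lay near the untreated range. Adam10, a protease that sheds cadherins, rose by 0.47 and 0.46 (edgeR adjusted p = 0.0438 and 0.0391). Cav1, the caveolar coat protein, fell by 1.71 and 1.77 (edgeR adjusted p = 0.000239 and 0.000113), and Lgals3, galectin-3, fell by 1.98 and 1.97 (edgeR adjusted p = 0.000377 and 0.000336). Leaving out both TGFβ1 replicate 3 libraries added Prmt1 to those that fell, by 0.27 and 0.30 (edgeR adjusted p = 0.0361 and 0.0192), at backgrounds of 23.9% and 27.9%.

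Of 14 transcription factors known to act on desmosome or epithelial genes, 12 were tested. In each genotype 2 rose and 2 fell, where 8.81% (control) and 11.4% (KO) of all tested genes were called. The repressors Zeb2 (0.83 and 0.46, edgeR adjusted p = 0.000287 and 0.00809) and Snai1 (0.86 and 1.12, edgeR adjusted p = 0.0379 and 0.00917) rose. Ovol1 (−1.22 and −1.13, edgeR adjusted p = 0.0102 and 0.0157) and Klf5 (−0.68 and −0.86, edgeR adjusted p = 0.0298 and 0.00753), factors of epithelial differentiation, fell. Leaving out both TGFβ1 replicate 3 libraries, 2 rose and 3 fell in control cells (Grhl1 added), at a background of 23.9%. In KO cells 4 then rose (Ovol2, Grhl2 added) and 2 fell, at a background of 27.9%. Under the replicate block 2 rose and 3 fell (Klf4 added) in KO cells, at a background of 19.8%. Zeb2 was at 46.8 and 41.7 CPM in TGFβ1 replicate 3, within or above the 37.7 to 44.6 CPM of replicates 1 and 2. Klf5 was at 145 and 138 CPM there, between the 168 to 210 CPM of untreated libraries and the 93.5 to 98.8 CPM of replicates 1 and 2. Trp63, which encodes the p63 that drives Perp in stratified epithelium, was counted at 0.0889 to 0.546 CPM.

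The genes whose log2 level was most like that of a called gene over the 12 libraries were found among genes of at least 10 CPM. For Jup they were Lrrk1 (r = 0.99), Wnt9a (0.98) and Coro6 (0.98), and for Ppl they were Tspan5 (0.99), Lgals3 (0.98) and Tmpo (0.98). For Evpl they were Ccdc92 (0.95), the unnamed gene ENSMUSG00000130204 (0.94) and Smarcb1 (0.94). For Perp they were S100a4 (0.98), Gm42674 (0.97) and S100a10 (0.97). The 12 libraries share 2 treatments that separate them for Ppl, Evpl and Perp, so these values, the highest of 8708 or 8709 compared, describe a shared pattern over treatment and are given with no test.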

How the data were processed

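The members, lists and alternatives were chosen with earlier results of these data known. Messenger RNA was primed on its poly(A) tail, counted at 3′ ends, and duplicates were removed by molecular identifier, per the labels' protocols. The submitters' processing notes name genome mm39, edgeR 3.38.4, Subread 2.1.1, featureCounts, STAR 2.7.11, fastp 0.24.0 and SAMtools 1.22.1, with settings and annotation not given in the sources used here. Per the labels and file headers, the authors deposited UMI-deduplicated expected counts per gene, of which 91.8% were whole (tolerance 0). Jup had fractional counts in 3 libraries, Ppl and Pkp3 in 1 each and Evpl in 6. The deposited CPM equalled count over library total within 4.85e-06. The 92 ERCC entries held 0 counts.

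Counts were rounded, filtered with filterByExpr and scaled by TMM (0.983 to 1.02). edgeR 4.0.16 in R 4.3.3 fitted 1 mean per group over all 12 libraries with the quasi-likelihood F test, and p was adjusted by Benjamini-Hochberg over 14012 genes, with calls below 0.05. Standard errors were taken as the log2 fold change divided by the root of F. The common biological coefficient of variation was 12.5%, and replicates correlated at 0.978 to 0.992. On simulated counts for TGFβ1 in control cells over 14012 genes, the scripts were tested for recovery of known changes. Named genes were all 10 members, up to 4 genes per direction of each list that passed, or 2 by smallest p where none did, and 3 genes most like each called member. A result of the hemidesmosome list, and with it that list's count, is not reported here. Alternatives were RLE or library totals, no filter, at least 10 CPM, DESeq2 1.42.0, voom in limma 3.58.1, 6 libraries only, the replicate number as a block, unrounded counts, each library left out, and both TGFβ1 replicate 3 libraries left out. Same-numbered libraries deviated together for TGFβ1 in KO cells (correlations 0.201, 0.139 and 0.202) and for genotype with TGFβ1 (0.396, 0.416 and 0.726), at a limit of 0.1. Deviations were taken from means of 3 libraries, so the 3 correlations of a contrast are not separate signs of pairing. For genotype with TGFβ1, the shared position of replicate 3 enters all of them. Pairing is thus taken from the data only, and the labels do not say that a number marks a shared day.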

Additional observations from a re-analysis of the deposited data

How the results depend on the processing

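Of 1074 alternative values of the 10 genes, 1001 kept their direction and side of the threshold, 19 gained a call, 21 lost one and 33 changed sign, all of the last between values that were not called. Without both TGFβ1 replicate 3 libraries, 6 of the 10 genes were called in control cells, 7 in KO cells and 1 (Dsg2) between untreated genotypes; genes called over all those tested were 3414, 3984, 201 and 76 for TGFβ1 in control cells, TGFβ1 in KO cells, genotype without and genotype with TGFβ1, against 1234, 1593, 39 and 38. Signs then changed for Dsp 0.07, Dsg2 0.09 and Pkp1 0.13 in control cells, Pkp3 0.09 in KO cells, and Dsg2 0.00 and Dsc2 0.10 for genotype with TGFβ1. With no filter on low counts 5 of the 10 were called in control cells (Jup added as higher, Pkp3 as lower). In KO cells 5 were called (Pkp2 and Dsg2 added as higher, Evpl lost), and between untreated genotypes 1 (Dsg2, lower). Of all genes 2115, 2413, 278 and 259 were called for the contrasts in the same order, with 18 for the interaction. More genes were tested in that fit, and its share of called genes is not given here. With DESeq2 2 of the 10 (Ppl, Perp) were called with TGFβ1 in KO cells, where 1731 of all genes were called. For genotype without and with TGFβ1, DESeq2 called 106 and 89 of all genes. For the same 2 genotype contrasts, 17 and 21 were called with at least 10 CPM, and 135 and 4 with only 6 libraries. The cause was not tested.

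Under the replicate block 2397, 2780, 144 and 158 of all genes were called for the same 4 contrasts; pairing was not seen for TGFβ1 in control cells (correlations 0.258, −0.0835 and 0.137) or genotype without TGFβ1 (0.149, 0.069 and 0.1245). In control cells the block added a call for Jup (0.80, edgeR adjusted p = 0.0486), and beside the values in the report it changed no other call of the 10 genes. Calls that the block added in the other lists included Nectin2 between untreated genotypes (−0.58, edgeR adjusted p = 0.0241) and Klf4 in control cells (−0.54, edgeR adjusted p = 0.00891).

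Leaving out 1 library at a time gave 408 to 2400 calls over all genes for TGFβ1 in control cells, 613 to 3059 for TGFβ1 in KO cells (2 to 5 of the 10 genes), 8 to 75 for genotype without and 3 to 61 for genotype with TGFβ1. Ranges that crossed 0 were −0.26 to 0.09 for Dsg2, −0.38 to 0.07 for Dsp and −0.53 to 0.13 for Pkp1 in control cells, and −0.05 to 0.33 for Dsp and −0.15 to 0.07 for Pkp3 in KO cells. For genotype with TGFβ1 they were −0.21 to 0.22 for Dsc2, −0.21 to 0.17 for Dsg2, −0.38 to 0.06 for Dsp, −0.09 to 0.58 for Jup, −0.10 to 0.55 for Pkp1, −0.05 to 0.33 for Pkp2, −0.04 to 0.31 for Pkp3 and −0.67 to 0.27 for Ppl. Jup ran from −0.13 to 0.12 for genotype without TGFβ1 and from −0.05 to 0.62 for the interaction, and Ppl from −0.37 to 0.57 for the interaction. Evpl, Dsc2 and Pkp1 were left out by the filter of at least 10 CPM.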

Other observations

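Some genes of the hemidesmosome, which ties keratin to the basement membrane, also passed the test with TGFβ1. Lamb3, a laminin chain, rose by 1.28 and 1.90 on the log2 scale in control and PBRM1 KO cells (edgeR adjusted p = 0.0384 and 0.00522), and Lama3, another, rose by 1.41 in KO cells (edgeR adjusted p = 0.0323). Itga6, the integrin α6 chain, fell by 0.98 and 1.35 (edgeR adjusted p = 0.00667 and 0.000745), and Cd151, its tetraspan partner, rose by 0.37 in KO cells (edgeR adjusted p = 0.0213). Lamb3 was at 96.7, 93.5 and 39.8 CPM with TGFβ1 in control cells against 29.9 to 32.3 CPM untreated, and Itga6 at 51.3, 61.3 and 84.3 CPM against 128 to 133 CPM.

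Of 16 genes of the cornified envelope, 7 had 0 counts in every library (Ivl, Tgm5, Sprr2d, Sprr2k, Sprr3, Loricrin, Scel) and 3 were tested. Anxa1 fell by 0.91 and 0.64 with TGFβ1 in control and KO cells (edgeR adjusted p = 9.08e-05 and 0.000731), and S100a10 by 0.46 and 0.45 (edgeR adjusted p = 0.000623 and 0.000657). Anxa1 was also lower in untreated KO than in untreated control cells, by 0.48 (edgeR adjusted p = 0.0346), at 522 to 588 against 697 to 810 CPM. Ppl and Evpl were thus counted in cells with 0 counts of involucrin (Ivl) and loricrin, the proteins they are best known for joining.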
